A study of Mus musculus with 27 samples.

Results

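The miR-7 family was followed through 27 small-RNA libraries from C57BL/6 mice. It was taken as every mature miRNA listed under a name starting miR-7a- or miR-7b-. That gave 5 members of 844 named miRNAs: miR-7a-5p, miR-7b-5p, miR-7a-2-3p, miR-7a-1-3p and miR-7b-3p. The suprachiasmatic nucleus (SCN, the central circadian clock of the mammalian brain), hypothalamus and cortex had 2 libraries each. The SCN was also sampled from ZT2 to ZT42, at 4 h steps of zeitgeber time (ZT, counted from lights on), with 11 single libraries. SCN neurons of 3 kinds, labelled AVP (vasopressin), VIP (vasoactive intestinal peptide) and CCK (cholecystokinin), had 2 libraries each, and so had SCN samples labelled LP and CTRL at CT18 (circadian time in hours). LP is not spelled out in the labels, and the series design speaks of responses to light. No genotype, transgene, age or pooling of animals is given, nor how the neurons were collected.

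miRNAs are cut from hairpin precursors as a duplex of a 5p and a 3p arm. Usually 1 arm is loaded into an Argonaute protein and pairs with messenger RNAs through its seed, bases 2 to 8, while the other arm is mostly degraded. miR-7 is ancient in animals and is known for its high level in neuroendocrine tissues such as pituitary, pancreatic islets and hypothalamus. In mammalian brain the circular RNA Cdr1as carries many miR-7 sites and is cleaved through miR-671-5p, and the long non-coding RNA Cyrano directs the destruction of miR-7.

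The mature sequences are given because the comparisons turn on which copies can be told apart. They are RefSeq's on GRCm38.p6, 5′ to 3′, with the seed in capitals.
miR-7a-5p: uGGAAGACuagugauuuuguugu
miR-7b-5p: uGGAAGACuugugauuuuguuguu
miR-7a-2-3p: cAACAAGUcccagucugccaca
miR-7a-1-3p: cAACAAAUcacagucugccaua
miR-7b-3p: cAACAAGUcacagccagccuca
miR-7a-5p and miR-7b-5p differ by A10U, counted from the 5′ end of miR-7a-5p, and by 1 further base at the 3′ end. Their seed GGAAGAC occurs in those 2 of 1679 mature mouse names searched. How reads with a mismatch were assigned is not given in the sources used here, so the split between them is uncertain by that much. The seed AACAAGU is shared by miR-7a-2-3p and miR-7b-3p, and miR-7a-1-3p differs from miR-7a-2-3p by G7A, C10A and C21U.

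miR-7a-5p is made from 2 genes with an identical 5p arm, so its reads cannot be assigned to either, whereas the 3p arms differ. The precursors of both genes show this, with the mature arms in capitals.
Mir7-1: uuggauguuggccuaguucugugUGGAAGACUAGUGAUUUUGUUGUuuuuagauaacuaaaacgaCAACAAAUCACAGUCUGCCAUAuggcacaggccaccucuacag
Mir7-2: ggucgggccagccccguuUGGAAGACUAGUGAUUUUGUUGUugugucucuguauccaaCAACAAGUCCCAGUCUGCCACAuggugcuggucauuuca
Mir7-1 lies at chr13:58392779-58392886 on the minus strand, in an intron of Hnrnpk, a gene for an RNA-binding protein, on the same strand (GENCODE M21, GRCm38). Mir7-2 lies at chr7:78888277-78888373 and Mir7b at chr17:56242988-56243098, both on the plus strand and overlapping no annotated gene. miR-7a-1-3p comes from Mir7-1, miR-7a-2-3p from Mir7-2 and miR-7b-3p from Mir7b.

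Libraries held an estimated 469808 to 5133920 miRNA reads, and levels are counts per 1e+06 reads (CPM), the deposited value divided by 10. Where a member had 0 reads, a floor of 3 reads allowed up to 1.07 to 6.39 CPM in the neuron libraries. Read numbers come from the step between the scaled values, so intervals and floors rest on that estimate and cover counting error only. Replicates are samples the labels number separately, and nothing says whether they came from separate animals, so p-values measure the spread between these samples, which may be technical. No miRNA of the lists used defines the SCN, and the neuropeptides that name the neurons were not measured here. The AVP libraries stood apart in 6 neuronal miRNAs (miR-124-3p, miR-128-3p and others): their summed level was 2566.6 and 3889.6 CPM, with miR-138-5p and miR-137-3p at 0, against 13306.7 to 18174.8 CPM in VIP, 10677.0 to 12359.7 CPM in CCK and 31927.0 to 35780.2 CPM in SCN tissue libraries. The vascular list summed to 3.3 to 176.5 CPM in the neuron libraries and 3910.0 to 3932.6 CPM in SCN tissue. The oligodendrocyte list summed to 45.1 to 134.3 CPM in AVP, 756.1 to 1249.1 in VIP and 630.6 to 741.5 in CCK. SCN tissue had 1003.7 to 1550.8 CPM. The erythrocyte list summed to 2106.8 to 2164.0 CPM in AVP, 943.1 to 1169.7 in VIP and 980.1 to 1014.7 in CCK. SCN tissue had 486.2 to 583.1 CPM and the time course 904.1 to 1402.2. In AVP and CCK 3 of its 4 miRNAs were at 0. The microglia and choroid plexus lists were lower in neurons. In bulk tissue, more cells of a type and more of a miRNA per cell cannot be told apart.

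The tissues were compared to find the miRNAs that set the SCN apart from its surroundings. The SCN held less miR-7a-5p and miR-7b-5p than hypothalamus and far more than cortex, while its miR-7a-2-3p was higher than in both. miR-7a-5p, the most abundant member, was at 39038.1 and 36214.7 CPM in the SCN, 63114.7 and 63817.7 CPM in hypothalamus and 2828.8 and 3509.0 CPM in cortex. By abundance it ranked 6 in each SCN library, 4 in each hypothalamus library, and 43 and 41 in the cortex libraries. miR-7b-5p was at 12523.5 and 12061.2 CPM in the SCN, 16814.4 and 17539.9 CPM in hypothalamus and 1403.5 and 1786.1 CPM in cortex. For both 5p arms the hypothalamus libraries were highest, the cortex libraries lowest, and no tissues overlapped.

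The 3p arms were far scarcer and did not follow that order. miR-7a-2-3p, the partner arm from Mir7-2, was at 139.4 and 119.1 CPM in the SCN, 43.8 and 47.3 CPM in hypothalamus and 2.7 and 5.1 CPM in cortex. The cortex values rest on 7 and 10 reads, with 95% exact binomial intervals of 1.12 to 5.72 and 2.46 to 9.45 CPM, which lie below every SCN and hypothalamus value. miR-7a-1-3p, the partner arm from Mir7-1, ran the other way, at 11.1 and 15 CPM in the SCN, 28.0 and 24.3 CPM in hypothalamus and 33.7 and 36.9 CPM in cortex. miR-7b-3p was scarce in these tissues, at 3.5 and 9.4 CPM in the SCN, 2.6 and 1.3 CPM in hypothalamus and 4.3 and 6.1 CPM in cortex, and stayed below the 10 CPM that 2 libraries had to reach to be tested. It rested on 3 to 34 reads here.

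**Figure D1:**
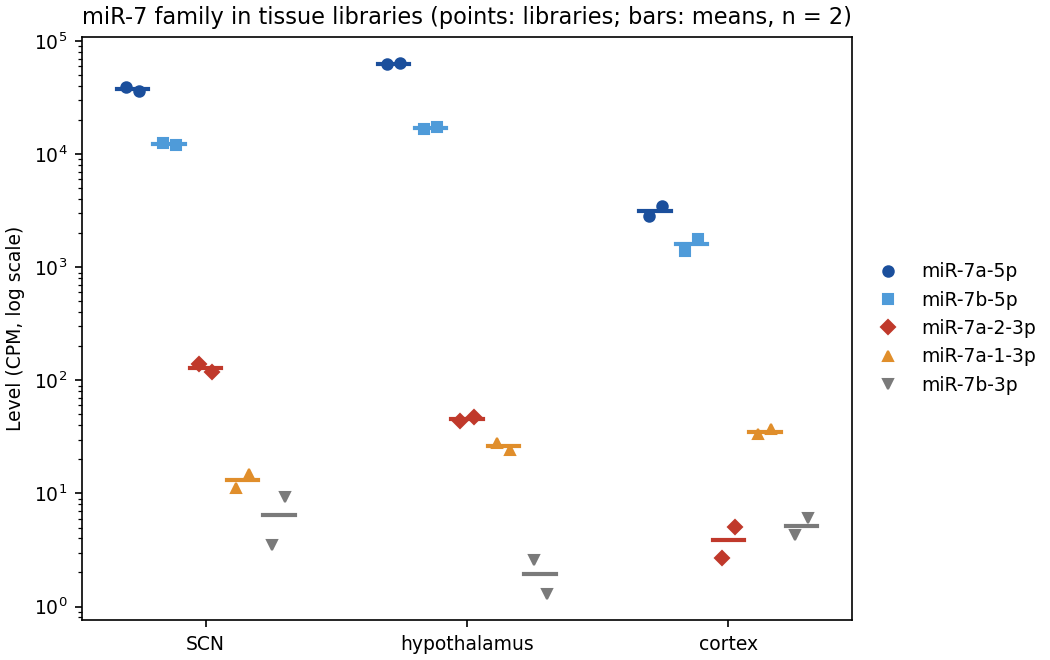
Levels of the 5 members in SCN, hypothalamus and cortex libraries (CPM, log scale), with 1 point per library and a bar at the mean of 2. The 5p arms are highest in hypothalamus, miR-7a-2-3p is highest in the SCN, and miR-7a-1-3p is highest in cortex.

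Against hypothalamus, 3 of the 4 members tested fell in the SCN and 1 rose. Tests were two-sided limma fits on log2(value + 1) over all 378 miRNAs, Benjamini-Hochberg adjusted, with a threshold of 0.05. miR-7a-5p averaged 37626.4 ± 1996.45 CPM in the SCN and 63466.2 ± 497.096 CPM in hypothalamus (SD, n = 2 each), a log2 fold change of -0.76 ± 0.10 (SE, limma adjusted p = 0.000182). miR-7b-5p fell by 0.48 ± 0.12 on the log2 scale (limma adjusted p = 0.00474). miR-7a-1-3p fell by 1.01 ± 0.26 (limma adjusted p = 0.00710). miR-7a-2-3p was 2.84-fold higher in the SCN, a log2 fold change of 1.50 ± 0.30 (limma adjusted p = 0.00183). Over all miRNAs 70.9% were called, 28% higher and 42.9% lower in the SCN, and 87.3% had tissues that did not overlap, so a call here was common.

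The call of miR-7b-5p in this comparison depended on the scaling. With median-ratio scaling, which moved the median of all miRNAs by 0.26 on the log2 scale, miR-7a-5p still fell, by 0.50 (limma adjusted p = 0.00155), while miR-7b-5p stood at -0.22 and was no longer called (limma adjusted p = 0.0950). Quantile normalization gave miR-7b-5p -0.18 (limma adjusted p = 0.265). Under both scalings miR-7a-2-3p remained higher and miR-7a-1-3p lower in the SCN. Leaving out hypothalamus replicate 1 put miR-7a-1-3p at -0.91, just outside the threshold (limma adjusted p = 0.0504).

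Base composition moved with the same comparison. Among miRNAs with under 40% G and C bases the median log2 ratio of SCN over hypothalamus was -1.56 (n = 55), for 40 to 50% it was -0.49 (n = 119), and for 50% and over it was 0.56 (n = 133). miR-7a-5p has 34.8% G and C and miR-7b-5p 33.3%, and both stood above the median of their class, by 0.80 and 1.07 on the log2 scale. miR-7a-2-3p, with 54.5%, stood 0.95 above its class and miR-7a-1-3p, with 40.9%, stood 0.51 below. Of 356 miRNAs compared, 86.2% had a sequence. The part of base composition in these differences was not tested.

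**Figure D2:**
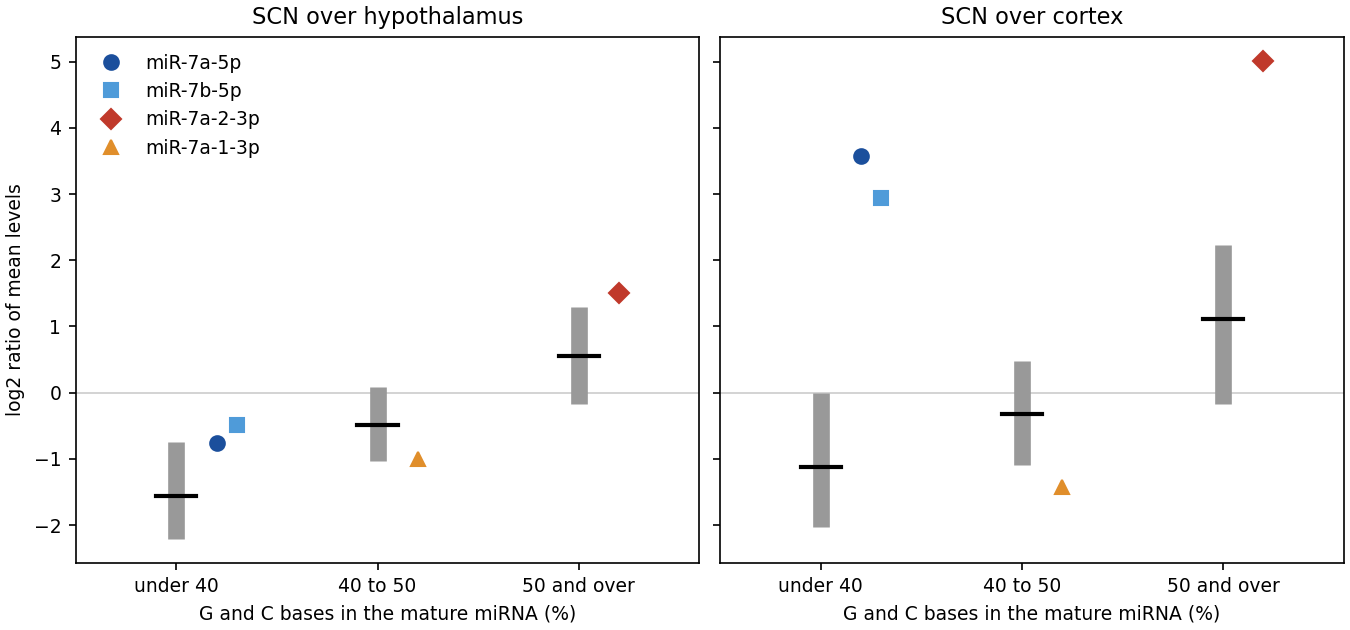
log2 ratio of mean levels for SCN over hypothalamus (left) and SCN over cortex (right), by the share of G and C bases in the mature miRNA. Black lines are medians and grey bars the middle 50% of all miRNAs in a class, and coloured points are miR-7 members. miR-7a-5p and miR-7b-5p lie below 0 against hypothalamus yet above their class median, and far above 0 against cortex.

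Cell type markers differed between these tissues as well. All 6 neuronal miRNAs tested fell in the SCN against hypothalamus (summed level 31927.0 to 35780.2 CPM in the SCN and 44891.4 to 46352.6 CPM in hypothalamus), as did all 4 oligodendrocyte miRNAs (1003.7 to 1550.8 CPM and 3566.1 to 4185.3 CPM) and all 5 vascular miRNAs (3910.0 to 3932.6 CPM and 11100.1 to 11818.3 CPM). Of 4 microglia and leukocyte miRNAs 3 fell and 1 rose (2084.3 to 2297.0 CPM and 3895.3 to 3904.7 CPM), with miR-142-3p at 0 in both SCN libraries. Of 4 erythrocyte miRNAs 3 fell and 1 rose (486.2 to 583.1 CPM and 548.5 to 888.2 CPM). Of 4 choroid plexus and ciliated cell miRNAs 1 rose and 1 fell (1007.1 to 1643.5 CPM and 1794.3 to 2439.4 CPM). Their part in the miR-7 differences was not tested.

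Against cortex, 3 of 4 members rose in the SCN and miR-7a-1-3p fell. miR-7a-5p was 11.9-fold higher in the SCN, a log2 fold change of 3.58 ± 0.10 (SE, limma adjusted p = 1.07e-08). miR-7b-5p was 7.71-fold higher, a log2 fold change of 2.96 ± 0.12 (limma adjusted p = 3.94e-08). miR-7a-2-3p was 33.1-fold higher, a log2 fold change of 5.08 ± 0.30 (limma adjusted p = 4.34e-07), ranking 7 of 378 by its rise. miR-7a-1-3p fell by 1.44 ± 0.26 on the log2 scale (limma adjusted p = 0.000709). Of all miRNAs 80.2% were called here, 41.3% higher and 38.9% lower in the SCN, and 90.2% had tissues that did not overlap. Every alternative setting run kept these 4 calls and their directions, and quantile normalization gave miR-7a-2-3p its smallest value, 4.31. All 6 neuronal miRNAs fell against cortex too, where their summed level was 132603.0 to 137414.0 CPM, and all 4 choroid plexus and ciliated cell miRNAs rose against a cortex sum of 189.4 to 229.2 CPM. All 5 vascular miRNAs fell (cortex sum 11012.8 to 11549.5 CPM). Of 4 erythrocyte miRNAs 3 fell and 1 rose (cortex sum 512.5 to 642.6 CPM), and the same counts held for 4 microglia and leukocyte miRNAs (cortex sum 4419.1 to 4542.6 CPM). Of 4 oligodendrocyte miRNAs 2 fell and 1 rose (cortex sum 1458.1 to 1952.9 CPM). Base composition moved with this pair too, with median log2 ratios of -1.13 for miRNAs with under 40% G and C (n = 53), -0.32 for 40 to 50% (n = 114) and 1.11 for 50% and over (n = 129). Above their class medians stood miR-7a-5p by 4.70, miR-7b-5p by 4.07 and miR-7a-2-3p by 3.90, and miR-7a-1-3p stood 1.11 below. The part of cell types and base composition in these differences was not tested.

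Hypothalamus against cortex gave the largest 5p difference of the 3 tissue pairs. miR-7a-5p was 20.03-fold higher in hypothalamus, a log2 fold change of 4.33 ± 0.10 (SE, limma adjusted p = 3.74e-09), ranking 7 of 378 by its rise. miR-7b-5p was 10.8-fold higher (limma adjusted p = 2.67e-08) and miR-7a-2-3p was 11.7-fold higher (log2 fold change 3.58, limma adjusted p = 1.14e-05), which quantile normalization lowered to 2.61 on the log2 scale. miR-7a-1-3p stood at -0.43 ± 0.26 on the log2 scale (limma adjusted p = 0.179). It passed the threshold under median-ratio scaling (-0.85, limma adjusted p = 0.0226), which moved the median of all miRNAs by 0.42 in this pair, and under quantile normalization (-1.05, limma adjusted p = 0.0176). Over all miRNAs 58.2% were called, 41.8% higher and 16.4% lower in hypothalamus, and 83.9% had tissues that did not overlap. All 4 oligodendrocyte miRNAs rose in hypothalamus, as did all 4 of choroid plexus and ciliated cells and 1 of 4 of erythrocytes, while 4 of 6 neuronal, 2 of 4 microglia and leukocyte and 1 of 5 vascular miRNAs fell. The part of these cell types in the miR-7 differences was not tested.

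Ratios of members within a library do not depend on scaling, and they too differed between tissues. miR-7a-5p over miR-7b-5p was 3.12 and 3.003 in the SCN, 3.75 and 3.64 in hypothalamus, and 2.02 and 1.96 in cortex. The Mir7-2 partner arm over the Mir7-1 partner arm, miR-7a-2-3p over miR-7a-1-3p, was 12.6 and 7.94 in the SCN, 1.56 and 1.95 in hypothalamus, and 0.0801 and 0.138 in cortex. In the SCN the Mir7-2 arm was the more abundant, and in cortex the Mir7-1 arm. These 2 arms differ in base composition, with 54.5% G and C in miR-7a-2-3p and 40.9% in miR-7a-1-3p. For SCN over hypothalamus the median log2 ratio of all miRNAs was 0.56 at 50% and over and -0.49 at 40 to 50%. The part of base composition in this ratio was not tested. Each pair of tissues was apart in both ratios, and the exact permutation test of 2 against 2 libraries cannot go below p = 0.333, which each of these comparisons gave.

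The 5p arm outnumbered its partner arm in every tissue, by amounts that differed. miR-7a-5p over both miR-7a 3p arms together was 259.4 and 270.1 in the SCN, 879.0 and 891.3 in hypothalamus, and 77.7 and 83.5 in cortex. Each hypothalamus library held more 5p reads per 3p read than any SCN or cortex library. Each pair of tissues again gave the smallest p the exact permutation test allows, 0.333. miR-7a-5p has 34.8% G and C, less than the 54.5% of miR-7a-2-3p. For SCN over hypothalamus the median log2 ratio of all miRNAs was -1.56 at under 40% and 0.56 at 50% and over. The part of base composition in this ratio was not tested.

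Along the SCN time course the 2 5p arms were highest in the first libraries and then varied together. miR-7a-5p was at 40337.0 CPM at ZT2, 26371.4 at ZT6, 13077.1 at ZT10, 10000.2 at ZT14, 11556.9 at ZT18 and 13929.3 at ZT22. In the second cycle it was at 15381.1 CPM at ZT26, 11942.0 at ZT30, 9000.3 at ZT34, 12689.9 at ZT38 and 15906.2 at ZT42. ZT26, the same hour of the cycle as ZT2, was well below it, and the low points of the cycles were at ZT14 and ZT34.

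miR-7b-5p ran alongside, with 12428.7 CPM at ZT2 and 7240.9 at ZT6, 2964.6 at ZT14, 5220.1 at ZT26, 2939.9 at ZT34 and 5022.7 at ZT42. Between the lowest and highest time miR-7a-5p spanned 4.48-fold and miR-7b-5p 4.23-fold, against a median of 2.76-fold over 325 miRNAs. These spans rested on ZT2: without it they were 2.93-fold and 2.46-fold, against a median of 2.56-fold. Their ratio within a library stayed between 2.95 and 3.64 at all 11 times. miR-7a-2-3p ranged from 74.9 CPM at ZT26 to 202.9 CPM at ZT10 with a median of 93.3, and its highest levels were at ZT2 to ZT10 (151.7, 180.8 and 202.9). miR-7a-1-3p ranged from 1.2 CPM at ZT30, where it rested on 4 reads, to 35.4 CPM at ZT2, and miR-7b-3p from 2.5 to 21.9 CPM.

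**Figure D3:**
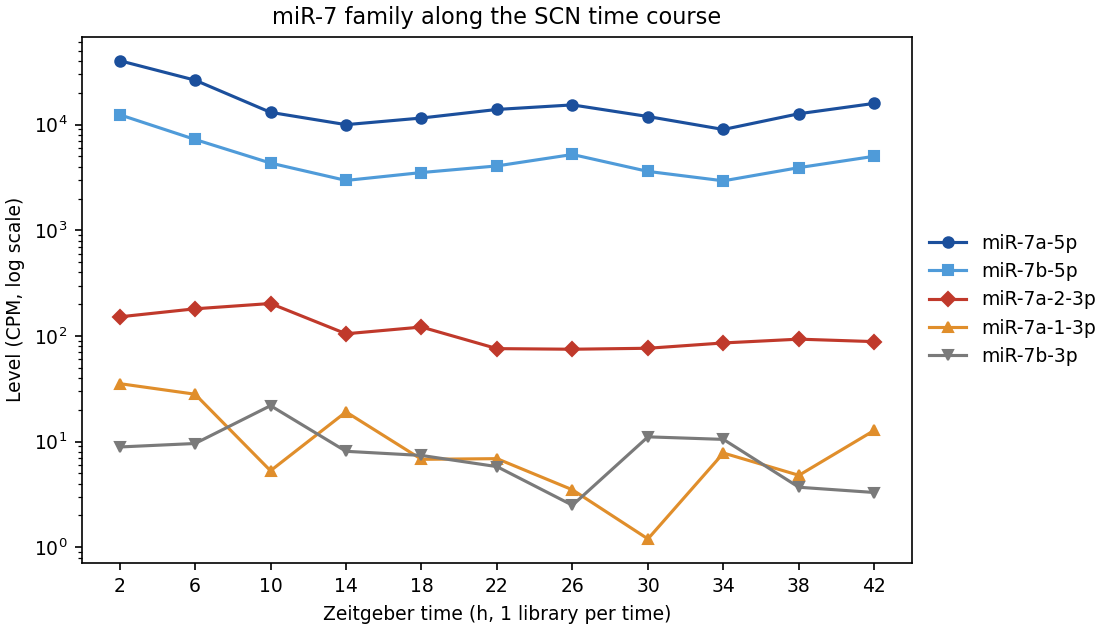
Levels of the 5 members at 11 times in the SCN (CPM, log scale), 1 library per time. The 2 lines of the 5p arms run parallel, highest at ZT2, with low points at ZT14 and ZT34.

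No member passed the test for a 24 h rhythm, and 0 of 357 miRNAs did (0% called), with 6 at an unadjusted p under 0.05 by limma. miR-7a-5p had a fitted amplitude of 0.55 ± 0.18 on the log2 scale (SE) with its peak at ZT 1.62 h, an unadjusted p of 0.0276 and a limma adjusted p of 0.9498. By p it ranked 2 and miR-7b-5p 3 of 357. miR-7b-5p had an amplitude of 0.54 ± 0.18 with its peak at ZT 1.67 h and the same adjusted p by limma. The fitted amplitude of miR-7a-5p rested partly on ZT2: without that library it was 0.32 and without ZT2 and ZT6 it was 0.24, and for miR-7b-5p it was 0.30 and 0.23. With 1 library per time, a time and its library cannot be told apart.

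In the neuron libraries the 5p arms were abundant in all 3 types, and CCK neurons had the most of both. miR-7a-5p was at 13982.5 and 19494.2 CPM in AVP, 9962.5 and 11911.2 CPM in VIP and 21616.5 and 20202.9 CPM in CCK neurons. miR-7b-5p was at 1542.8 and 1767.0 CPM in AVP, 1726.2 and 1672.4 CPM in VIP and 3183.3 and 3789.9 CPM in CCK neurons. The CCK libraries lay above the AVP and VIP libraries for both, and AVP and VIP overlapped for miR-7b-5p alone. Over all miRNAs 64.6% did not overlap between AVP and VIP, 58% between AVP and CCK and 62.6% between VIP and CCK neurons. Replicates of a neuron type were far less alike than those of a tissue. The AVP pair correlated over miRNAs at r = 0.62, the VIP pair at 0.67 and the CCK pair at 0.59. Each pair of SCN, hypothalamus and cortex replicates reached 0.99. Estimated depth differed too: CCK replicates held 469808 and 487360 reads, AVP replicates 537185 and 908476, and VIP replicates 2812318 and 2786568. Whether this affects the neuron comparisons was not tested.

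miR-7a-2-3p was at 423.4 and 537.1 CPM in AVP, 346.7 and 317.1 CPM in VIP and 291.9 and 433.4 CPM in CCK neurons. The AVP and CCK libraries overlapped, as did VIP and CCK. miR-7a-1-3p had 0 reads in both AVP libraries, which allows up to 5.60 and 3.31 CPM, 1.4 and 0 CPM in VIP and 0 and 34.9 CPM in CCK neurons. miR-7b-3p was found in 1 library of each type, at 9.9 CPM in AVP, 5.0 CPM in VIP and 23.4 CPM in CCK neurons. Those last 2 members were not tested here.

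Of the 3 members tested, miR-7b-5p was lower in AVP than in CCK neurons, by 1.07 ± 0.18 on the log2 scale (SE, limma adjusted p = 0.0207), in a comparison that called 16.7% of 305 miRNAs (2.62% higher and 14.1% lower in AVP). In VIP against CCK neurons, with 29.8% called (8.2% higher and 21.6% lower in VIP), miR-7a-5p was lower by 0.94 ± 0.21 (limma adjusted p = 0.0381) and miR-7b-5p by 1.03 ± 0.18 (limma adjusted p = 0.0212). The median log2 fold change of all miRNAs was -0.93 in that comparison, so both members lay close to it. It was -0.45 in AVP against CCK and 0.26 in AVP against VIP neurons. In AVP against VIP neurons, with 32.8% called (18% higher and 14.8% lower in AVP), none of the 3 passed: miR-7a-5p stood at 0.60 ± 0.21 (limma adjusted p = 0.0972), miR-7a-2-3p at 0.52 ± 0.33 and miR-7b-5p at -0.041 ± 0.18. Of 6 neuronal miRNAs 3 were lower in AVP than in VIP, 3 were lower in AVP than in CCK and 1 was higher in VIP than in CCK neurons, and their part in these differences was not tested.

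These neuron calls depended on the processing. With the replicate number as a block all 3 were lost (limma adjusted p = 0.0564 for miR-7b-5p in AVP against CCK, and 0.0585 for miR-7a-5p and 0.0557 for miR-7b-5p in VIP against CCK neurons). In VIP against CCK neurons median-ratio scaling moved the median of all miRNAs by 0.76 on the log2 scale and left miR-7a-5p at -0.12 (limma adjusted p = 0.807) and miR-7b-5p at -0.21 (limma adjusted p = 0.473). Quantile normalization ended both calls too (-0.65 and -0.34, limma adjusted p = 0.0820 and 0.468). In AVP against VIP neurons median-ratio scaling moved the median by 0.31 and turned miR-7a-5p to -0.051. It put miR-7b-5p at -0.69, which passed the threshold (limma adjusted p = 0.0398). In AVP against CCK neurons miR-7b-5p was lower under median-ratio scaling too (-0.90, limma adjusted p = 0.0266), and lost the call under quantile normalization (-0.57, limma adjusted p = 0.250). It was lost as well without AVP replicate 1, CCK replicate 1 or CCK replicate 2 (limma adjusted p = 0.0844, 0.122 and 0.193). In VIP against CCK neurons miR-7a-5p lost its call whichever of the 4 libraries was left out (limma adjusted p = 0.0672 to 0.200), and miR-7b-5p lost it without VIP replicate 2, CCK replicate 1 or CCK replicate 2 (limma adjusted p = 0.0534, 0.137 and 0.155). Calls over the whole table fell likewise without CCK replicate 1, to 0 in AVP against CCK and to 2 in VIP against CCK neurons, and without CCK replicate 2, to 0 and 1.

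**Figure D4:**
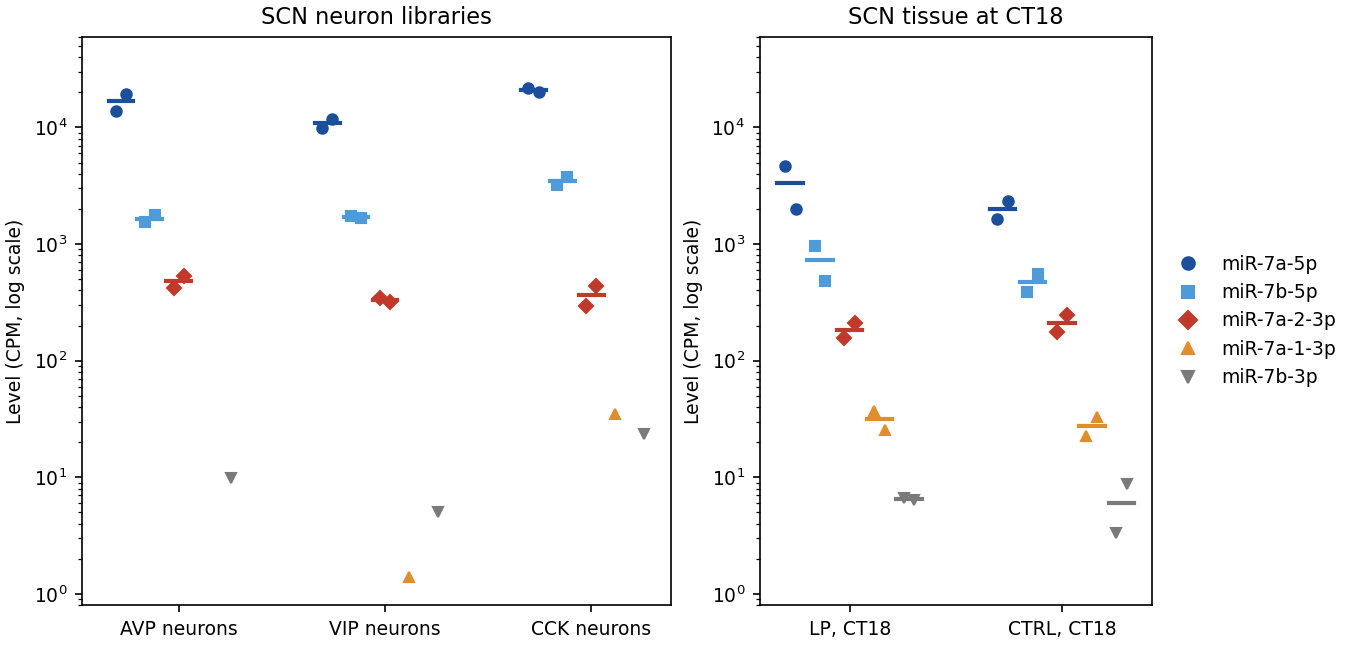
Levels of the 5 members (CPM, log scale) in AVP, VIP and CCK neurons and in LP and CTRL samples at CT18, with 1 point per library. Bars are means of 2 libraries, libraries at 0 reads are not drawn, and a member then has no bar. CCK neurons have the most miR-7b-5p, and 1 LP library stands above the others in both 5p arms.

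miR-7a-5p over miR-7b-5p was larger in the neuron libraries than in tissue, at 9.06 and 11.03 in AVP, 5.77 and 7.12 in VIP and 6.79 and 5.33 in CCK neurons. AVP was apart from VIP and from CCK neurons, each with the smallest p that the exact permutation test allows, 0.333, and VIP and CCK overlapped. In all 21 tissue libraries this ratio was between 1.96 and 4.88. miR-7a-5p over miR-7a-2-3p was 33.02 and 36.3 in AVP, 28.7 and 37.6 in VIP and 74.1 and 46.6 in CCK neurons. Neuron and tissue libraries were not tested against each other.

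At CT18 the LP samples were set against CTRL to look for responses to light, and no member passed the test. miR-7a-5p was at 4708.5 and 2011.9 CPM in LP and at 1641.6 and 2356.5 CPM in CTRL libraries. miR-7b-5p was at 964.7 and 482.4 CPM in LP and at 391.9 and 557.9 CPM in CTRL libraries. For both, LP replicate 1 was above the CTRL libraries and LP replicate 2 lay between them. miR-7a-2-3p was at 158.0 and 212.1 CPM in LP and at 175.1 and 247.6 CPM in CTRL libraries, miR-7a-1-3p at 37.3 and 25.5 CPM in LP and at 22.5 and 32.6 CPM in CTRL, and these groups overlapped.

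The log2 fold change of miR-7a-5p was 0.65 ± 0.41 and that of miR-7b-5p 0.54 ± 0.37 (SE), with a limma adjusted p of 0.992 for each. In this comparison 0 of 317 miRNAs were called (0%), 1 at an unadjusted p under 0.05 by limma, and 18.6% had groups that did not overlap. Without LP replicate 2, which leaves LP replicate 1 alone and assumed to vary like the CTRL libraries, miR-7a-5p stood at 1.26 (limma adjusted p = 0.00157), miR-7b-5p at 1.04 (limma adjusted p = 0.00997) and 21 miRNAs were called. Without LP replicate 1 miR-7a-5p stood at 0.033. miR-7a-5p over miR-7a-2-3p was 29.8 and 9.49 in LP and 9.38 and 9.52 in CTRL libraries, so LP replicate 1 was apart from the other 3.

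Across all 9 kinds of library miR-7a-5p averaged most in hypothalamus and then in SCN, CCK neurons, AVP neurons, the time course, VIP neurons, LP, cortex and CTRL. The time course libraries ran from 9000.3 to 40337.0 CPM and so overlapped CCK, AVP and VIP libraries. They reached the SCN libraries (39038.1 and 36214.7 CPM) through ZT2 alone, and the other times were at 9000.3 to 26371.4 CPM. LP overlapped cortex and CTRL. In the 17 SCN tissue libraries miR-7a-5p spanned 24.6-fold (deposited value + 1), from CTRL replicate 1 to ZT2. On the same measure miR-7b-5p spanned 31.9-fold, miR-7a-1-3p 28.8-fold and miR-7a-2-3p 3.30-fold, against a median of 4.93-fold over 336 miRNAs. The mean level in CTRL over that in SCN was -4.23 on the log2 scale for miR-7a-5p and 0.71 for miR-7a-2-3p, while miRNAs with under 40% G and C bases had a median of 0.87 (n = 55) and those with 50% and over -0.36 (n = 128). The experiments may be batches of their own, so batch and sample kind cannot be told apart and no test was made between them.

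**Figure D5:**
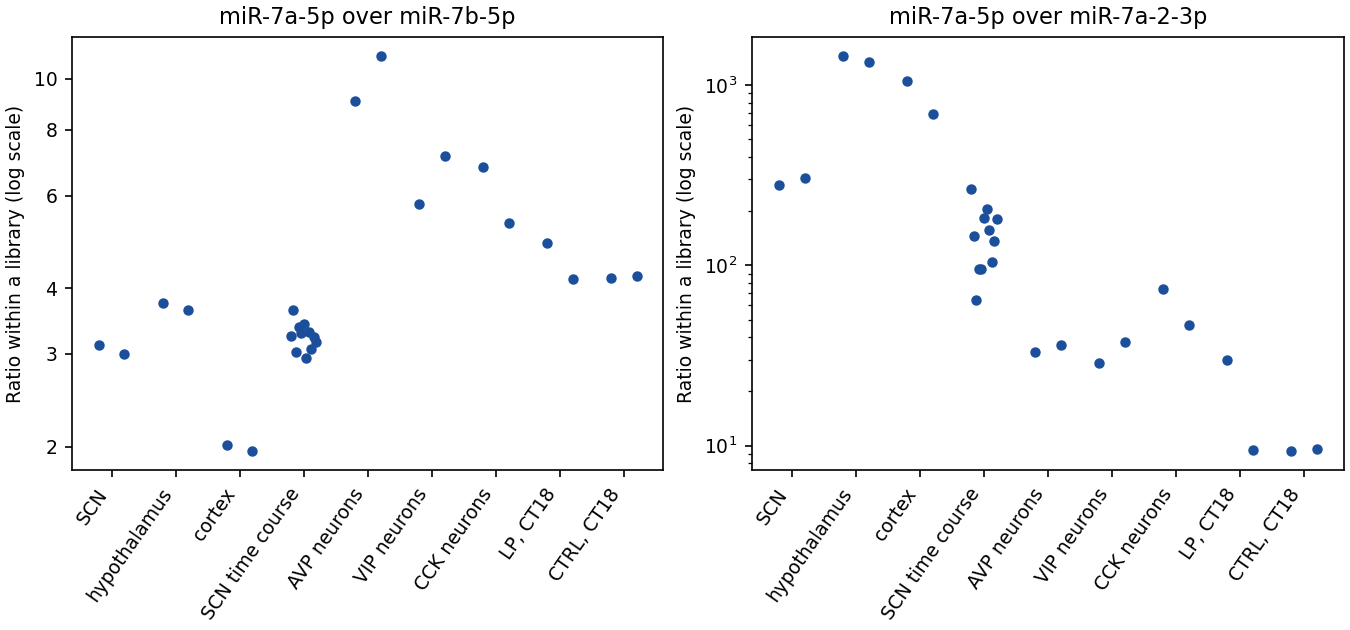
Ratios within each of 27 libraries on a log scale: miR-7a-5p over miR-7b-5p (left) and miR-7a-5p over miR-7a-2-3p (right), 1 point per library. The left ratio is highest in AVP neurons and lowest in cortex, and the right ratio is highest in hypothalamus and lowest in 3 of the 4 CT18 libraries, with LP replicate 1 among the neuron libraries.

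Patterns over the 9 group means were compared among 338 miRNAs by the root mean square difference of centred log2 means, where a smaller value is a closer pattern. These means cross experiments that may be batches of their own. A likeness in batch and a likeness in sample kind therefore cannot be told apart here. The nearest to miR-7a-5p was miR-7b-5p (0.65 on the log2 scale), followed by miR-676-3p (0.82), miR-127-3p (1.08), miR-501-3p (1.15) and miR-379-5p (1.18), against a median of 2.60. For miR-7b-5p the others were miR-676-3p, miR-379-5p, miR-192-5p and miR-1843b-5p. miR-7a-2-3p was nearest to miR-666-5p (0.90), miR-92b-3p, miR-877-5p, miR-770-5p and miR-423-5p, and its own partner arm miR-7a-5p ranked 84 of 338. miR-7a-1-3p was nearest to miR-1839-3p (0.57), miR-299a-3p, miR-23a-3p, miR-674-5p and let-7c-2-3p.

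miR-671, whose 5p arm directs cleavage of Cdr1as, was read beside miR-7. miR-671-5p was at 41.8 and 36.0 CPM in the SCN, 19.7 and 26.1 CPM in hypothalamus and 16.6 and 12.8 CPM in cortex. It rose 1.70-fold in the SCN against hypothalamus (limma adjusted p = 0.0285) and 2.65-fold against cortex (limma adjusted p = 0.000987). Its partner arm miR-671-3p was the more abundant, at 179.1 and 148.4 CPM in the SCN, 56.5 and 45.9 CPM in hypothalamus and 70.5 and 80.6 CPM in cortex, and rose 3.20-fold in the SCN against hypothalamus (limma adjusted p = 4.22e-05). In neurons miR-671-3p was at 432.8 and 479.8 CPM in AVP and 110.3 and 82.6 CPM in VIP neurons (4.73-fold, limma adjusted p = 0.0106), while miR-671-5p had 0 reads in the AVP and CCK libraries, which allows up to 3.31 to 6.39 CPM, and was at 7.4 and 65.3 CPM in VIP neurons. At CT18 neither arm passed the test.

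Among 15 other neuroendocrine miRNAs tested in tissue, 8 rose and 3 fell in the SCN against hypothalamus (28% and 42.9% of all miRNAs did), with a median log2 fold change of 0.59 against -0.29 over all miRNAs. miR-200b-3p, which represses the Zeb transcription factors, rose 5.83-fold (limma adjusted p = 2.29e-05), whereas miR-153-3p and miR-9-5p, both neuronal, fell by 2.39 and 1.28 on the log2 scale (limma adjusted p = 2.15e-05 and 9.46e-06). Against cortex 7 rose and 7 fell in the SCN (41.3% and 38.9% of all). In hypothalamus against cortex 6 rose and 6 fell (41.8% and 16.4% of all). In neurons 8 of them were tested: 2 were higher and 3 lower in AVP than in VIP (18% and 14.8% of all), none was higher and 1 lower in AVP than in CCK (2.62% and 14.1% of all), and 2 were higher and 1 lower in VIP than in CCK neurons (8.2% and 21.6% of all). At CT18 none of 10 passed the test, nor did any other miRNA (0%).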

How the data were processed

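Frozen tissue, Trizol RNA and Illumina libraries are described per the labels' protocols. Bowtie and GRCm38 (mm10) are named without role or version, per the submitters' processing notes. Each deposited file lists a signal for mature miRNAs: reads scaled by the authors to about 1e+07 per library and written as whole numbers (totals 10004170 to 10021510), as the values show. Reads per library were estimated from the smallest step between values.

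The tissue, neuron, CT18 and time course libraries each had 1 limma-trend model (limma 3.58.1, R 4.3.3) on log2(value + 1). The added 1 slightly understates changes of scarce miRNAs found in every library. Where a library has 0 reads, a few reads elsewhere can give a large change, since 1 read is worth 1.95 to 21.3 on the deposited scale. A miRNA was tested if it reached 100 on the deposited scale (10 CPM) in 2 libraries, or 3 in the time course. Rhythm used cosine and sine terms of 24 h. The fits for SCN against hypothalamus and for the rhythm were tested on simulated data of equal depth, and the neuron and CT18 fits were not. Ratios used exact permutation tests (scipy 1.17.1), two-sided. Named are all members, the 2 miR-671 arms, up to 4 neuroendocrine miRNAs of smallest p and the 5 nearest patterns. Members and lists were chosen with earlier results of these data known. The deviations of replicate 1 from its group mean correlated between compared groups at -0.089 to 0.25 over miRNAs. With only 2 numbers, same-numbered replicates were not treated as pairs.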

Additional observations from a re-analysis of the deposited data

How the results depend on the processing

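Of 327 values of members under alternative settings, 291 kept their side of the threshold and, where they have one, their direction. Among them were all 40 for SCN against cortex. All 81 for the rhythm were counted too, but an amplitude has no direction and no miRNA was called in any setting. Those 81 therefore say little about how stable the amplitudes were. Median-ratio scaling put miR-7b-5p at -0.22 in SCN against hypothalamus, miR-7a-5p at -0.051, miR-7a-2-3p at -0.13 and miR-7b-5p at -0.69 (then called) in AVP against VIP neurons, and miR-7a-5p at -0.12, miR-7b-5p at -0.21 and miR-7a-2-3p at 0.72 in VIP against CCK neurons. Quantile normalization gave miR-7b-5p -0.18 in SCN against hypothalamus and -0.57 in AVP against CCK neurons, and miR-7a-5p -0.65, miR-7b-5p -0.34 and miR-7a-2-3p 0.35 in VIP against CCK neurons. The cause was not tested.

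With the replicate block the folds were the same but 3 calls were lost, miR-7b-5p in AVP against CCK neurons (-1.07, limma adjusted p = 0.0564) and miR-7a-5p and miR-7b-5p in VIP against CCK neurons (-0.94 and -1.03, limma adjusted p = 0.0585 and 0.0557), where 46 miRNAs were called in all, against 91 without the block. With quantile normalization these were 56, and without VIP replicate 2 they were 52. The labels' numbers do not pair the samples.

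Leaving out each library in turn gave miR-7b-5p -0.14 to 0.057 in AVP against VIP, -1.20 to -0.95 in AVP against CCK and -1.16 to -0.91 in VIP against CCK neurons, and miR-7a-5p -1.07 to -0.81 and miR-7a-2-3p -0.39 to 0.18 in VIP against CCK neurons. At CT18 it gave miR-7a-5p 0.033 to 1.26, miR-7b-5p 0.045 to 1.04, miR-7a-1-3p -0.087 to 0.46 and miR-7a-2-3p -0.44 to 0.064. Calls over all miRNAs were 0 to 69 in AVP against CCK neurons (51 with all libraries; 26 without AVP replicate 1) and 1 to 65 in VIP against CCK neurons. Leaving out ZT2 and ZT6 together, and ZT2 for the spans, was chosen after seeing the data. The planned edgeR and DESeq2 fits were not run: every value is a whole number of steps rounded down, but in 25 of 27 libraries under 95% of low values lay within 0.1 step of a whole read, or too few were low to tell, so reads are estimates. Depth limits the 3p arms, which rest on 3 to 34 reads for miR-7b-3p in SCN, hypothalamus and cortex libraries.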
